A study of Rattus norvegicus with 9 samples.

Results

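The genes described here make or remove reactive oxygen species. They were 10 named genes, Nox4, Cyba, Cybb, Sod1, Sod2, Sod3, Cat, Gpx1, Hmox1 and Nqo1, and every array probe carrying 1 of these names was taken. This gave 13 of the 45598 probes on the array, and 10 of the 34912 gene names. The tissue was left and right amygdala from female rats of the SHR strain, which develops high blood pressure. Every one of the 9 rats had lost both ovaries at 4 weeks of age, so rats with ovaries are not among the groups. After 1 week of recovery, 5 rats (OV+E) carried a minipump with estradiol in PEG that released 2 µg a day, and 4 rats (OV) carried a pump with PEG alone. Tissue was taken at 9 weeks of age, 5 weeks after the ovaries were removed. The labels give the length of treatment both as one month and as 4 weeks. Each rat had its own 1-colour array. The replicate numbers are 1 to 5 in OV+E and 1, 2, 3 and 5 in OV.

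NADPH oxidases pass electrons to oxygen and so make superoxide or hydrogen peroxide. Superoxide dismutases turn superoxide into hydrogen peroxide, and catalase and glutathione peroxidases break the peroxide down. Haem oxygenase 1 and the quinone reductase Nqo1 are known targets of the transcription factor Nrf2, which is released under oxidative stress. In brain, the phagocyte oxidase subunits Cybb and Cyba are known mainly from microglia. A whole-tissue level cannot tell fewer cells of a type from less RNA per cell.

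For Cat, Gpx1, Cybb, Nox4, Hmox1 and Nqo1, 1 probe each is shown, because each gene's value rests on 1 or 2 short stretches. The Cybb and Nox4 probes shown were too dim to be tested, and the Cybb result comes from its other probe. That probe, the Cyba probe and the brighter Gpx1 probe, which stands for Gpx1 in counts over genes, are not shown. All those shown are 60 bases as printed in the array files, 5′ to 3′, with positions on rat build rn4 per the file headers. Exon, intron or UTR annotation was not used here. The Cat probe lies at chr3:88683063-88685007 (+) and covers 1945 bases of genome, and the first Nox4 probe lies at chr1:143584026-143586154 (+) and covers 2129 bases, so both join separate stretches of genome. The other 4 each cover 60 bases: Cybb at chrX:25518505-25518564 (−), Gpx1 at chr16_random:1046092-1046151 (+), Hmox1 at chr19:13969336-13969395 (+) and Nqo1 at chr19:37251727-37251786 (−). No base is marked in capitals.
Cat A_44_P362954: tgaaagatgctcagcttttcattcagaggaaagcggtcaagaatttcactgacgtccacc
Gpx1 A_44_P1164156: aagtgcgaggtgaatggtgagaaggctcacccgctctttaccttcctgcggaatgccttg
Cybb A_42_P538670: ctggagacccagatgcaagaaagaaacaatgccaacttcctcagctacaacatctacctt
Nox4 A_44_P154040: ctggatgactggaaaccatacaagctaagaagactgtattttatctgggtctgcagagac
Hmox1 A_43_P11472: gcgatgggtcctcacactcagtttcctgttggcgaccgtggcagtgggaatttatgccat
Nqo1 A_64_P005208: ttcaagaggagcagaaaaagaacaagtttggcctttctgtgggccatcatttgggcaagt

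Levels are given as log2 of the processed signal minus the 75th percentile of its array, so that 0 is that percentile. They can be compared between rats for 1 probe, but not between probes. The percentile itself was 556.8 to 737.6 signal units on 8 arrays and 129.7 on OV replicate 3, a dim array. OV replicate 3 also stood apart in pattern. Its probes lay a median of 0.56 log2 units from the mean of the other 3 OV arrays, against 0.14 to 0.18 for each of those. The column that the authors deposited for this rat differs from its scanner file. The log2 ratio between column and scanner file had an SD of 1.00 over probes there, and of 0.0042 to 0.031 on the other 8 arrays. Whether this scanner file and this column come from the same scan or array is not known, so what the OV replicate 3 values measure, and with them the comparison of all 9 arrays, is uncertain. The result of each tested member is therefore given with all 9 arrays, which is the planned comparison, and without this one. The arrays sat on 2 slides, with OV+E replicates 1 and 2 and OV replicates 1, 2 and 3 on slide 1, and OV+E replicates 3, 4 and 5 and OV replicate 5 on slide 2. Of 6 genes enriched in the amygdala, 5 were well above background on enough arrays to be tested.

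With all 9 arrays, no gene of the set passed the test between OV+E and OV rats. Of the 13 probes, 10 were well above background on at least 4 arrays and were tested, and they covered 9 of the 10 genes. In limma's test, adjusted by Benjamini-Hochberg over 30215 probes, 0 of these 10 had an adjusted p under 0.05, and the smallest was 0.524. The background share was 0% of all probes. At an unadjusted p under 0.05 the count was 0 of 10, against 10.4% of all probes (3.21% higher and 7.17% lower in OV+E). Groups did not overlap for 0 of 10, against 6.91% of all probes (2.89% higher and 4.02% lower). By gene, 6 were lower and 3 higher in OV+E, with a median difference of −0.13 and a range of −0.21 to 0.22. Over all probes the median was 0.0011, and 49.8% were lower. The median size of the difference, regardless of sign, was 0.15 over the genes and 0.20 over all probes.

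**Figure D1:**
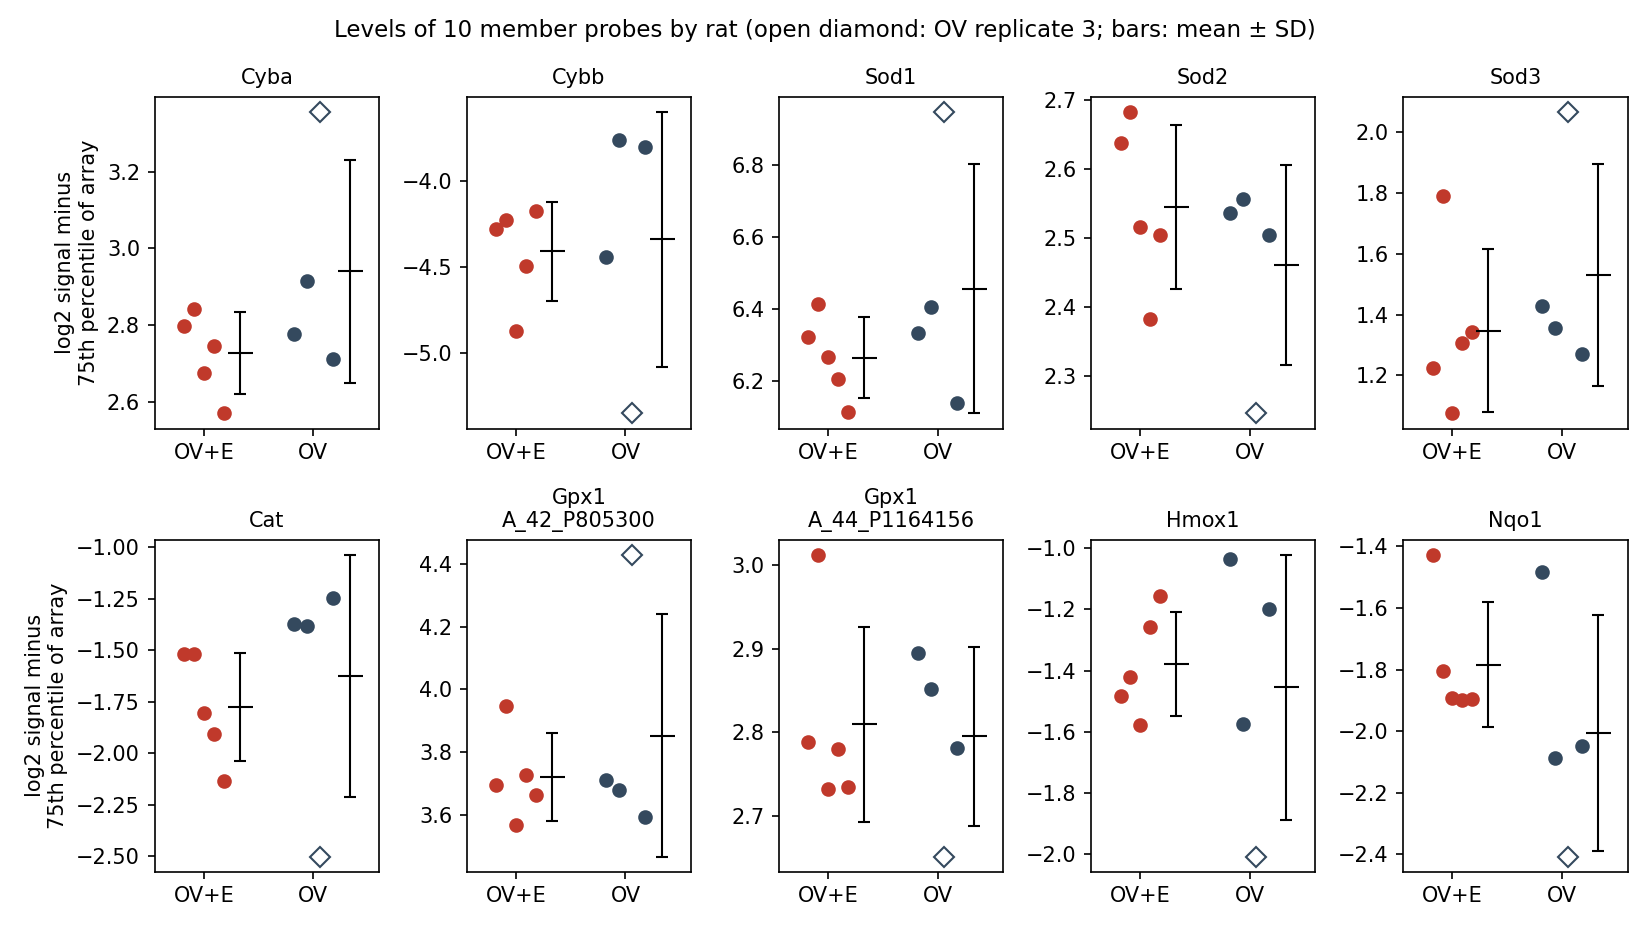
Log2 level (signal minus the 75th percentile of its array) of the 10 tested probes in each rat, OV+E at left and OV at right, with mean ± SD beside the points (n = 5 and n = 4) and OV replicate 3 as an open diamond. The OV+E and OV points overlap in every panel, and in all 10 panels OV replicate 3 lies outside the range of the other 3 OV rats.

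Nox4, an oxidase that makes mainly hydrogen peroxide, was not well above background in any of the 9 rats on either of its probes. The signal of the probe printed above was 3.20 to 3.62 in OV+E and 2.46 to 3.84 in OV, and the signal of the other probe was 4.38 to 9.74 in OV+E and 2.96 to 10.2 in OV. No difference is given for it. The printed Cybb probe was likewise not well above background in any rat, with a signal of 3.71 to 9.02 in OV+E and 4.80 to 16.4 in OV.

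Cybb, the catalytic subunit of the phagocyte oxidase, was measured by its second probe, which was well above background in all 5 OV+E rats and in 3 of 4 OV rats. Its log2 level was −4.28, −4.22, −4.87, −4.49 and −4.17 in OV+E replicates 1 to 5, against −4.44, −3.76, −5.35 and −3.80 in OV replicates 1, 2, 3 and 5. OV replicate 3, where it was not well above background, held the lowest value, OV replicates 2 and 5 held the highest, and the groups overlapped. The difference was −0.07 ± 0.32 (SE; limma adjusted p = 0.918). Without OV replicate 3 it was −0.41 ± 0.21 (SE; limma adjusted p = 0.429).

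Cyba encodes the membrane subunit that pairs with Cybb and with Nox4. Its log2 level was 2.80, 2.84, 2.68, 2.75 and 2.57 in OV+E, against 2.78, 2.91, 3.36 and 2.71 in OV, with OV replicate 3 far above the rest. The difference was −0.21 ± 0.14 (SE; limma adjusted p = 0.524), and −0.08 ± 0.08 (SE; limma adjusted p = 0.734) without that array. Cyba is printed 10 times on the array, and spots within 1 array varied with an SD of 0.060 to 0.083. The SD between rats was 0.11 in OV+E and 0.29 in OV, or 0.10 in OV without OV replicate 3.

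Microglial markers were measured beside these subunits. Of 14 markers tested, 8 were lower and 6 higher in OV+E, with a median of −0.25, and 5 were lower at an unadjusted p under 0.05, against 7.17% of all probes. Without OV replicate 3, 11 were lower and 3 higher, and 3 were lower at that threshold, against 8.26% of all probes. None of the 14 passed after adjustment with all 9 arrays. The summed level of the markers was 58.6 to 67.3 in OV+E and 63.4 to 93.9 in OV, where 93.9 was OV replicate 3. Of 7 neutrophil and monocyte markers, 2 (Elane and Ccr2) were not well above background in any rat, 4 were tested, 3 of these were lower, and the summed level was 0.28 to 0.35 in OV+E and 0.36 to 0.99 in OV, where 0.99 was OV replicate 3 and the other OV rats reached 0.41. With all 9 arrays, no marker of the other cells measured passed after adjustment. Lower in OV+E were 7 of 7 oligodendrocyte and 7 of 9 meninges and fibroblast markers (1 and 4 at an unadjusted p under 0.05). So were 6 of 8 endothelial, 6 of 8 astrocyte and 5 of 7 pericyte and smooth muscle markers (2, 0 and 1 at that threshold). Higher were 8 of 8 neuron and 7 of 7 choroid plexus markers (1 and 0). Over all probes 7.17% were lower and 3.21% higher at that threshold. Without OV replicate 3, 7 oligodendrocyte, 9 meninges and fibroblast, 6 endothelial, 7 astrocyte and 3 pericyte and smooth muscle markers were lower. Higher were then 6 neuron and 7 choroid plexus markers. The oligodendrocyte median moved from −0.41 to −0.22, and the neuron median from 0.30 to 0.16, when that array was left out. The summed level of the choroid plexus markers was 254 to 477 in OV+E and 11.6 to 749 in OV. There 11.6 was OV replicate 2 and 749 was OV replicate 3, while OV replicates 1 and 5, at 344 and 307, lay inside the OV+E range. The part of these cell types in the member values was not tested.

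Sod1, the dismutase of the cytosol, had log2 levels of 6.32, 6.41, 6.27, 6.21 and 6.12 in OV+E, against 6.33, 6.40, 6.95 and 6.14 in OV. Apart from OV replicate 3 the rats of both groups spanned nearly the same range. The difference was −0.19 ± 0.16 (SE; limma adjusted p = 0.561) and became −0.03 ± 0.09 (SE; limma adjusted p = 0.923) without that array, where the 95% interval was −0.24 to 0.18.

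Sod2, the mitochondrial dismutase, had log2 levels of 2.64, 2.68, 2.52, 2.38 and 2.50 in OV+E, against 2.54, 2.56, 2.25 and 2.50 in OV. OV replicate 3 was the lowest of the 9, and the OV+E rats lay on both sides of the other 3 OV rats. The difference was 0.08 ± 0.11 (SE; limma adjusted p = 0.676), and 0.01 ± 0.08 (SE; limma adjusted p = 0.964) without OV replicate 3. Sod3, the secreted dismutase, had log2 levels of 1.22, 1.79, 1.07, 1.31 and 1.34 in OV+E, against 1.43, 1.36, 2.07 and 1.27 in OV. Its highest values were OV replicate 3 and OV+E replicate 2. The difference was −0.18 ± 0.20 (SE; limma adjusted p = 0.632), and −0.0043 ± 0.15 (SE; limma adjusted p = 0.995) without OV replicate 3.

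Cat encodes catalase, the peroxisomal enzyme that breaks down hydrogen peroxide. Whether its groups overlapped depended on the arrays used and on the processing. Its log2 level was −1.52, −1.52, −1.80, −1.90 and −2.13 in OV+E, against −1.37, −1.38, −2.50 and −1.25 in OV. OV replicate 3 was the lowest of the 9 rats, and the other 3 OV rats were the highest. With all 9 arrays the difference was −0.15 ± 0.27 (SE; limma adjusted p = 0.768; two-sided exact permutation p = 0.635). Without OV replicate 3 it was −0.44 ± 0.15 (SE; limma adjusted p = 0.244) and the groups did not overlap, as for 5.43% of all probes in that direction. The two-sided exact permutation p was then 0.036, where the smallest this design allows is 0.018. At an unadjusted p under 0.05 Cat was the only 1 of the 10 probes called without that array, against 14.1% of all probes (8.26% lower in OV+E). After adjustment 0 of the 10 were called there, against 0.00331% of all probes. With normexp background correction and all 9 arrays, the Cat difference was −0.38 ± 0.12 (SE; limma adjusted p = 0.503). Levels were then −1.46, −1.39, −1.69, −1.72 and −1.93 in OV+E, against −1.33, −1.28, −1.22 and −1.18 in OV. The groups did not overlap, but the share of all probes without overlap was not counted for normexp. At an unadjusted p under 0.05 Cat was again the only 1 of the 10 called, against 8.39% of all probes.

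In the authors' deposited table, scaled in the same way, Cat was −2.72, −2.75, −2.98, −3.08 and −3.31 in OV+E, against −2.58, −2.57, −2.48 and −2.38 in OV. There OV replicate 3 lay among the other OV rats, and the groups did not overlap, as for 5.59% of all probes in that direction. The difference was −0.47 ± 0.12 (SE; limma adjusted p = 0.0896; two-sided exact permutation p = 0.024), against a background of 0.347% of probes with an adjusted p under 0.05. At an unadjusted p under 0.05, Cat and Cybb were 2 of 10 members called in the authors' values, both lower, against 19.3% of all probes (12.4% lower). Without the added scaling the authors' values gave −0.45 ± 0.13 (SE; limma adjusted p = 0.110). When limma weighted each array by its quality, OV replicate 3 had a weight of 0.049 and OV replicate 2 of 4.25. The Cat difference was then −0.50 ± 0.14 (SE; limma adjusted p = 0.0489), with 11.6% of all probes called. At an unadjusted p under 0.05 that fit called 3 of 10 members, against 31.5% of all probes. This was the only one of the settings run in which a member passed the adjusted threshold.

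The Cat levels also differed by slide among OV+E rats, with the replicates on slide 1 above those on slide 2. Within slide 1 the difference was 0.24 with OV replicate 3 and −0.14 without it, and within slide 2, which holds 1 OV rat, it was −0.70. Whether the difference itself varied between slides was not tested. Red cells are rich in catalase. Of 6 red cell marker probes, 5 were lower in OV+E, 4 of them at an unadjusted p under 0.05, with a median of −0.28, against 7.17% of all probes. Hbb went the other way, at 0.11, and was −0.19 without OV replicate 3. Their summed level was 133, 140.0, 124, 99.99 and 123 in OV+E replicates 1 to 5, against 152, 161, 152 and 150.2 in OV replicates 1, 2, 3 and 5. The groups did not overlap in this sum, against 4.02% of all probes in that direction, but the Hba-a1 probe alone made up 95.9% to 96.6% of it in OV+E rats and 96.1% to 97.9% in OV rats. Its part in the Cat values was not tested.

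**Figure D2:**
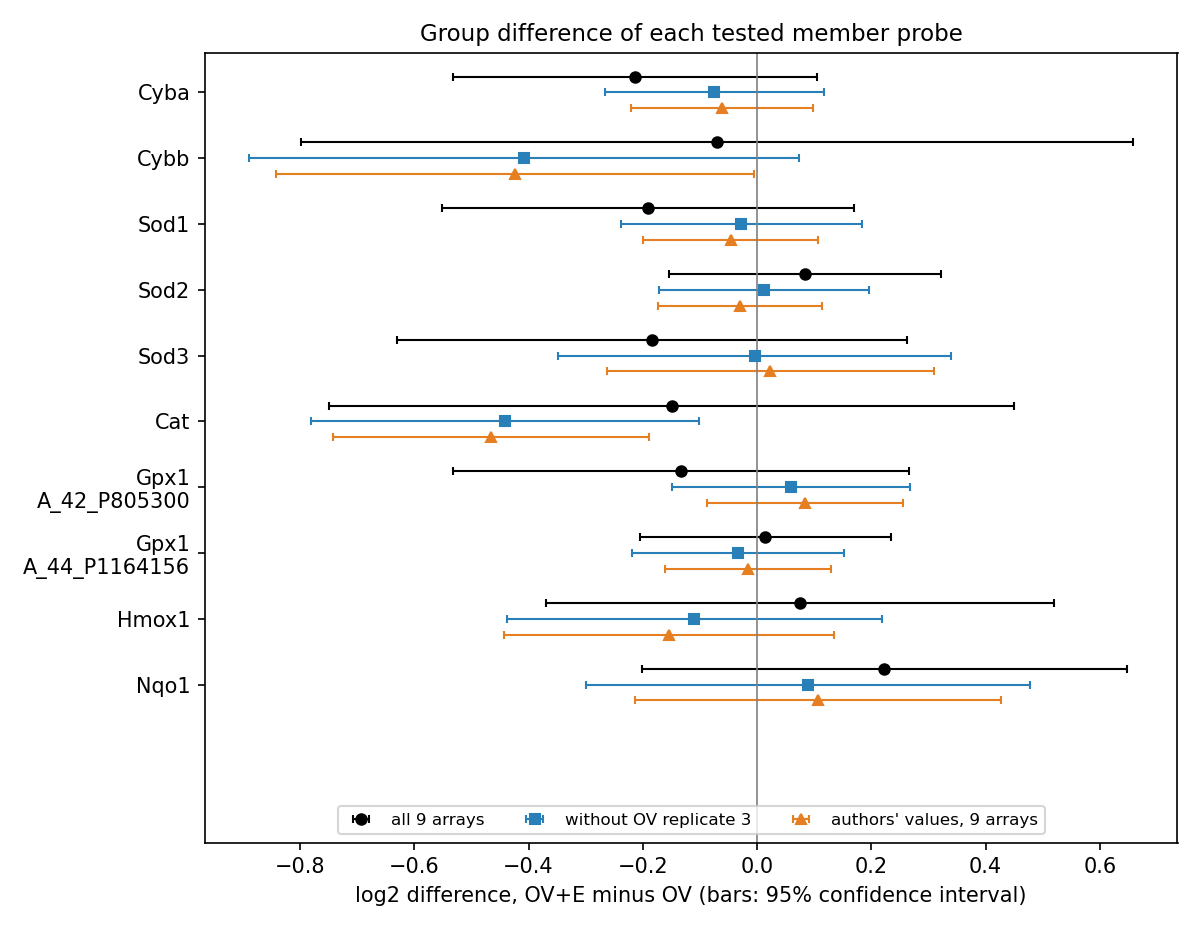
Log2 difference (OV+E minus OV) of each tested probe with its 95% confidence interval, from all 9 arrays (black), without OV replicate 3 (blue) and from the authors' values (orange). The interval for Cat includes 0 with all 9 arrays and lies below 0 in the other 2 sets of values (−0.78 to −0.10 without OV replicate 3, −0.74 to −0.19 in the authors' values).

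Gpx1, the main cytosolic glutathione peroxidase, had 2 probes, each printed 10 times. The brighter (A_42_P805300) had log2 levels of 3.70, 3.95, 3.57, 3.73 and 3.66 in OV+E, against 3.71, 3.68, 4.43 and 3.59 in OV. The other (A_44_P1164156, printed above) had 2.79, 3.01, 2.73, 2.78 and 2.73 in OV+E, against 2.90, 2.85, 2.65 and 2.78 in OV. The probes moved in opposite directions in OV replicate 3, which lay 0.77 above the other OV rats on the first and 0.19 below them on the second. The differences were −0.13 ± 0.18 (SE; limma adjusted p = 0.695) and 0.01 ± 0.10 (SE; limma adjusted p = 0.945). Without OV replicate 3 they were 0.06 ± 0.09 and −0.03 ± 0.08 (SE; limma adjusted p = 0.816 and 0.889).

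Hmox1, which breaks haem down to biliverdin, iron and carbon monoxide, had log2 levels of −1.48, −1.42, −1.58, −1.26 and −1.16 in OV+E, against −1.04, −1.57, −2.01 and −1.20 in OV. OV replicate 3 was lowest and OV replicate 1 highest, so the OV+E rats lay inside the OV range. The difference was 0.08 ± 0.20 (SE; limma adjusted p = 0.848), and −0.11 ± 0.14 (SE; limma adjusted p = 0.776) without OV replicate 3. Nqo1, which reduces quinones, had log2 levels of −1.43, −1.81, −1.89, −1.90 and −1.90 in OV+E, against −1.48, −2.09, −2.41 and −2.05 in OV. Replicate 1 was the highest rat of each group. The difference was 0.22 ± 0.19 (SE; limma adjusted p = 0.562), and 0.09 ± 0.17 (SE; limma adjusted p = 0.856) without OV replicate 3. Without OV replicate 1, and with OV replicate 3 kept, it was 0.40 (limma unadjusted p = 0.029, adjusted p = 0.257). This was the highest of the fits with 1 array left out. In that fit 17.6% of all probes had an unadjusted p under 0.05.

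OV replicate 3 lay beyond the range of the other 3 OV rats on all 10 tested probes, above it for Cyba, Sod1, Sod3 and the brighter Gpx1 probe and below it for the other 6. In the scanner file it stood 1.17 below the mean of the other OV rats for Cat and 1.35 below it for Cybb, and 0.65 above it for Sod1. Without it the median difference over the 9 genes was −0.03, against 0.01 over all probes, and 6 genes were lower in OV+E. These were not the same 6, since Gpx1 (A_42_P805300) turned to 0.06 and Hmox1 to −0.11.

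**Figure D3:**
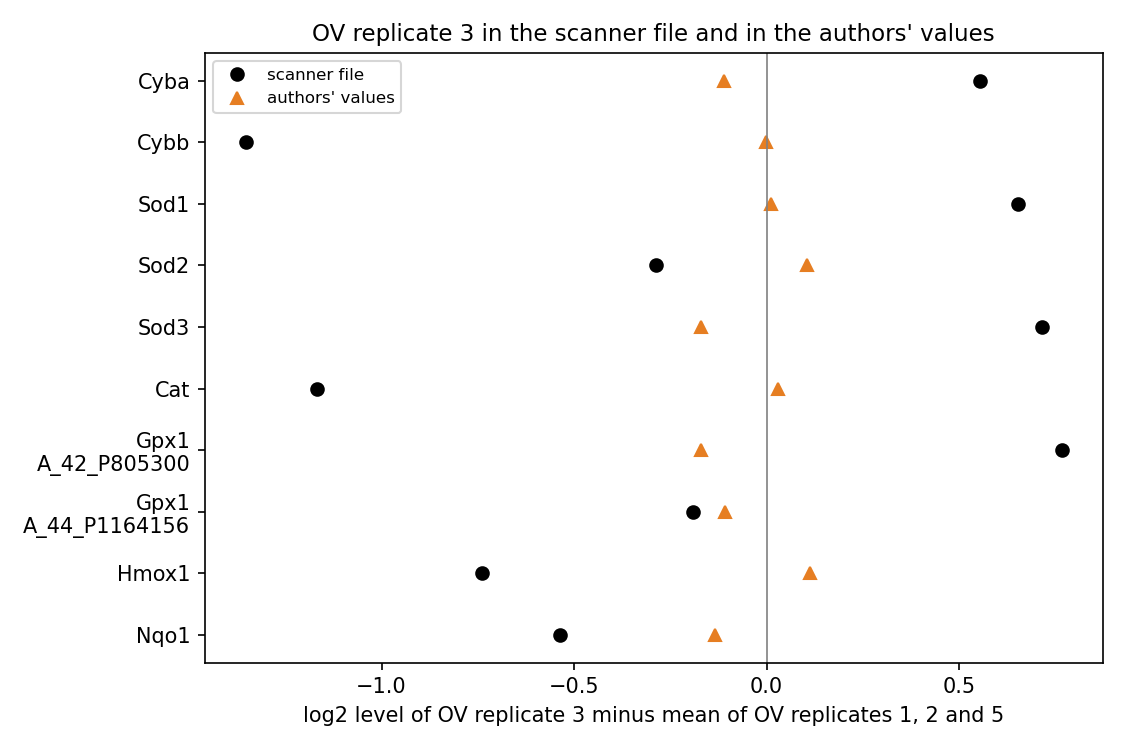
Log2 level of OV replicate 3 minus the mean of OV replicates 1, 2 and 5 for the 10 tested probes, in the scanner file (black circles) and in the authors' values (orange triangles). The scanner values reach −1.35 (Cybb) and 0.77 (Gpx1 A_42_P805300), while the authors' values lie between −0.17 and 0.11.

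The other genes of reactive oxygen handling were taken from 8 lists, and 0 of their tested genes passed the adjusted test. Among oxidase relatives and subunits, 9 of 13 were tested, 8 were lower and 1 higher in OV+E, with a median of −0.09. At an unadjusted p under 0.05, 2 were lower and 0 higher, against 7.17% and 3.21% of all probes. With OV replicate 3 left out the split was 5 higher and 4 lower with a median of 0.012. At that threshold 3 were then lower and 1 higher, against 14.1% of all probes (8.26% lower in OV+E). Rac2, a small GTPase of the phagocyte oxidase, differed by −0.30 ± 0.11 (SE; limma adjusted p = 0.413). Ncf1, a cytosolic organiser of that oxidase, differed by −0.42 ± 0.18 (SE; limma adjusted p = 0.458). Duox1, a dual oxidase, differed by −1.30 ± 0.58 (SE; limma adjusted p = 0.483) and by −0.57 without OV replicate 3. Rac2 and Ncf1 differed by −0.23 and −0.24 without it.

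Peroxiredoxins reduce peroxides through cysteines. The list of peroxiredoxin and thioredoxin genes also held genes such as Txnip, Sesn1 and Msra. Of its 20 genes 20 were tested, 16 higher and 4 lower, with a median of 0.10 and 0 at an unadjusted p under 0.05. Prdx3, the mitochondrial peroxiredoxin, differed by 0.38 ± 0.22, Prdx4 by 0.46 ± 0.28 and Prdx1 by 0.32 ± 0.22 (SE; limma adjusted p = 0.514, 0.518 and 0.530). Without OV replicate 3 these were 0.13, 0.13 and 0.058, and the list had 13 higher and 7 lower with a median of 0.036. Of 30 glutathione genes 29 were tested, 20 higher and 9 lower, with a median of 0.07 and 0 at an unadjusted p under 0.05. Ggt7, a gamma-glutamyltransferase relative, differed by 0.44, Gstm3, a glutathione transferase, by −0.29 and Gpx2, a glutathione peroxidase, by −0.62. They differed by 0.18, −0.37 and −0.24 without OV replicate 3. The list median was then 0.010, with 15 higher and 14 lower, and 2 higher and 1 lower at that threshold, against 14.1% of all probes.

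Of 12 genes listed around Nrf2, among them Nrf2 itself (Nfe2l2), 8 were higher and 4 lower, with a median of 0.07. Maff, a small Maf partner of Nrf2, differed by 0.37 ± 0.17 (SE; limma adjusted p = 0.492) and by 0.53 without OV replicate 3. Osgin1 differed by 0.55, and Cul3, a scaffold of the ligase that degrades Nrf2, by 0.21, or 0.080 without that array. The list without it had 10 higher and 2 lower with a median of 0.096. At an unadjusted p under 0.05, 2 were then higher and 0 lower, against 14.1% of all probes (1771 of 30215 higher). The other oxidases and peroxidases had 10 of 12 tested, 7 higher and 3 lower, with a median of 0.18, and Lpo, Alox5 and Aox1 differed by 0.54, −0.26 and 0.17. The split was 5 and 5, the median 0.029, and Alox5 −0.13 without OV replicate 3.

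Haem, iron and quinone genes had 10 of 10 tested, 2 higher and 8 lower, with a median of −0.07. Nqo2, a quinone reductase related to Nqo1, differed by −0.36, Ftl1, the ferritin light chain, by −0.26 and Cbr1, a carbonyl reductase, by −0.15. Leaving out OV replicate 3 gave −0.20, −0.13 and −0.073, with a list median of −0.030 (4 higher and 6 lower). Copper delivery genes and metallothioneins had 10 of 10 tested, 2 higher and 8 lower, with a median of −0.04 and 1 lower at an unadjusted p under 0.05, against 7.17% of all probes. Leaving out OV replicate 3 gave 5 higher and 5 lower, with a median of −0.0029. The 1 gene was Atp7b, a copper pump, at −0.75 ± 0.27 (SE; limma adjusted p = 0.397), and −0.48 without OV replicate 3. Mt3 and Mt1 differed by −0.26 and −0.11, and by −0.0072 and −0.032 without that array. Mitochondrial regulators had 10 of 10 tested, 7 higher and 3 lower, with a median of 0.08. Ppargc1a, a coactivator of mitochondrial genes, was the 1 lower at an unadjusted p under 0.05, against 7.17% of all probes, at −0.33 ± 0.13 (SE; limma adjusted p = 0.439). Slc25a14 and Nnt differed by 0.21 and 0.18. In the 8 arrays other than OV replicate 3 these were −0.28, 0.11 and 0.049, the list median was 0.042, and 0 of the 10 were called at that threshold.

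**Figure D4:**
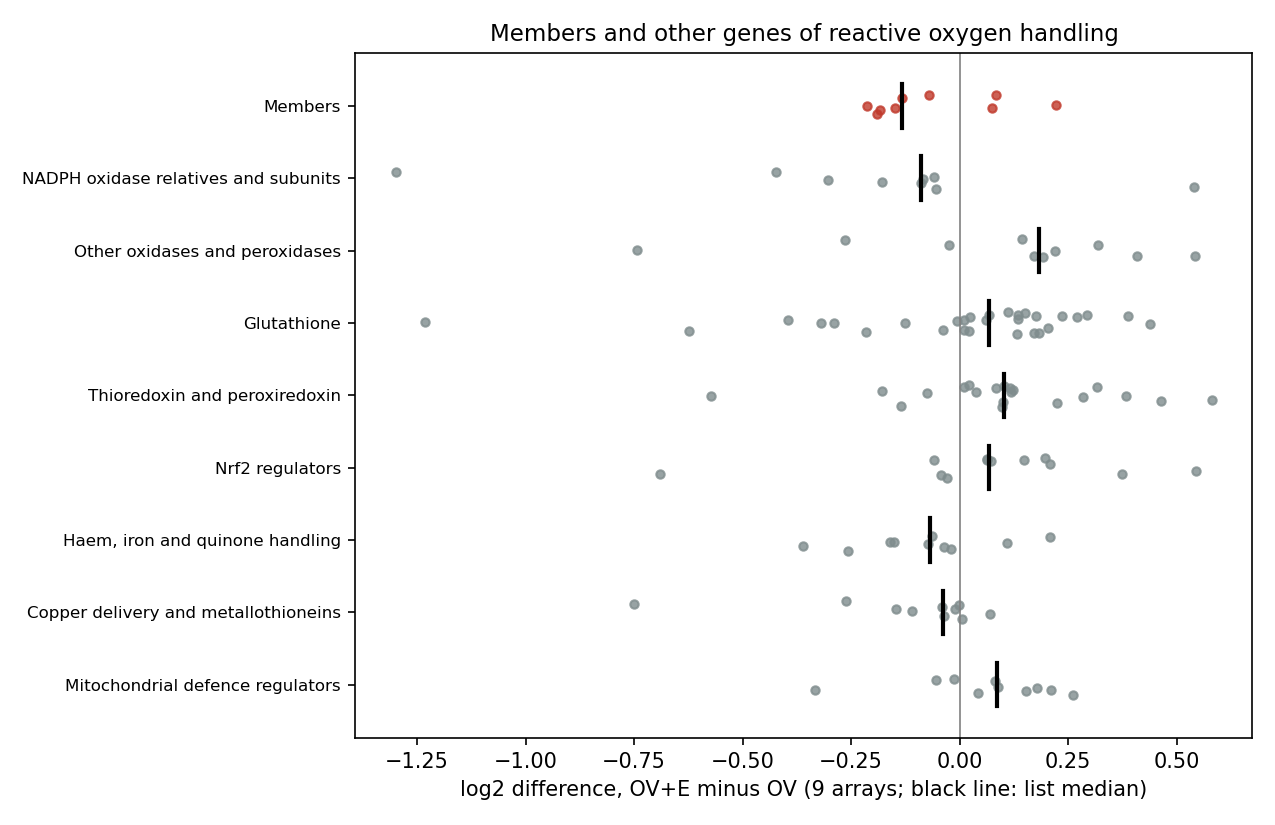
Log2 difference (OV+E minus OV, all 9 arrays) of each tested gene, for the 9 tested members (red) and 8 lists of other genes (grey), with each list's median as a black line. The members span −0.21 to 0.22, and the list medians lie between −0.09 and 0.18.

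Promoters were searched for letters that estrogen receptors and Nrf2 are known to bind, as a description of sequence alone. RefSeq promoters (build GRCr8) were found for 8 of the 10 genes, all but Hmox1 and Sod3, and the 250 bases before the start were searched on both strands. The full estrogen response element, GGTCA and TGACC with 3 bases of any kind between them, was in 0 of 8, against 0.0239% of 33469 promoters. The half-site GGTCA was in 4 of 8 (Cat, Cyba, Nox4 and Sod2), against 35.4%. The antioxidant core TGACNNNGC was in 1 of 8 (Sod2), against 10.1%, and there it overlaps the half-site. The promoters of Cat, whose difference depended on the arrays and processing used, and of Sod2, which holds both motifs, are shown. They are written 5′ to 3′ on the gene's strand. They lie at chr3:110329527-110329776 (−) and chr1:50050169-50050418 (−). Capitals mark the half-site in Cat, and in Sod2 the antioxidant core, read on the other strand, with the half-site inside it.
Cat: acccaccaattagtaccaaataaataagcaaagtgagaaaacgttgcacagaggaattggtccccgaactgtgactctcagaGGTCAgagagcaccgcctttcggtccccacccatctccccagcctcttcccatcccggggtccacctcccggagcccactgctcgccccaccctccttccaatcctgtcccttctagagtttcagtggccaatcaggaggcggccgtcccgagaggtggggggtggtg
Sod2: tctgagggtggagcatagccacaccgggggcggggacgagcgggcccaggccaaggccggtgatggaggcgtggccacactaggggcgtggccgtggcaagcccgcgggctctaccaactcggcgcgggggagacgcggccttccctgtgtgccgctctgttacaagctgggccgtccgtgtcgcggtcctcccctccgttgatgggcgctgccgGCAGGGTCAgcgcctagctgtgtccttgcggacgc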

How the data were processed

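Expression was measured on Agilent 1-colour (Cy3) arrays, with 200 ng of amygdala RNA from 1 rat on each. Values in the deposited scanner files are intensity with the background already removed (processed signal). Feature Extraction is given as 9.1 in the submitters' processing notes and as 10.7.3.1, protocol GE1_107_Sep09, per the file headers. The authors' value table, also an intensity, was deposited already scaled, by steps not given in the sources used here.

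Of 62976 spots per array, 4259 control spots and spots marked as outliers were left out, and spots of a probe were averaged as log2 values. Each array's 75th percentile was subtracted. The 30215 probes that 4 or more of the 9 arrays measured well above background were tested. The group comparison used lmFit and eBayes of limma 3.58.1 (R 4.3.3) with group as sole term, and Benjamini-Hochberg adjustment over all tested probes. Differences are OV+E minus OV. The brightest tested probe stands for a gene in counts over genes. All 10 genes are named with every probe, and the 3 genes of smallest unadjusted p in each pathway list.

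The members and lists were chosen with earlier results of these data known. Alternatives were normexp background correction, quantile and median scaling, other filters, slide and replicate number as blocks, each slide alone, array weights, each array left out, and the authors' table. A further 5 were chosen after seeing the data: OV replicate 3 left out with slide as a block, with normexp or with median scaling, and the authors' table with slide as a block or without the added percentile scaling. On data simulated for OV+E against OV (30175 probes, 200 changed), limma called 18% of probes changed 1.5-fold, 64% of those changed 2-fold, 72% for 3-fold and 80% for 4-fold, and made 5 false calls. The simulated noise was independent between probes, with the same spread on every array. It held no outlying array and no slide effect, so these shares may not hold for the measured arrays. The number of arrays limits the precision.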

Additional observations from a re-analysis of the deposited data

Results flagged for a closer look

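A rat far from the rest of its group was looked for in 26 groups, that is 13 probes in 2 groups, and 6 were found. Chance flags about 1 in 20 groups. OV replicate 3 was the rat in 4 of the 6. It was highest among OV rats for the Nox4 probe A_44_P154040, at a log2 level of −5.72, where no rat was well above background, and for the Gpx1 probe A_42_P805300, at 4.43. It was lowest for Sod2, at 2.25, and for Cat, at −2.50. Among OV+E rats, replicate 2 was highest for the Gpx1 probe A_44_P1164156, at 3.01, and replicate 1 was highest for Nqo1, at −1.43.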

How the results depend on the processing

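Probes with an adjusted p under 0.05 numbered 0 of 30215 in the planned comparison (smallest 0.156), with 3136 at an unadjusted p under 0.05 (969 higher and 2167 lower in OV+E), 0 of 10 member probes and a median of −0.13 over the genes. The split was 1344 and 1925 with quantile normalization and 1396 and 1538 with median scaling, and scaling by the median, normexp or no filter moved the median of all probes by over 0.1. Slide 2 holds 1 OV rat, which is assumed to vary like the others, so its counts and passes have no spread of their own behind the OV arm. With the slide block 0 and 2305 probes, and with the filter on all 9 arrays 0 and 2514, passed the adjusted and unadjusted thresholds. At the unadjusted threshold 2534 of 30215 probes (8.39%) passed with normexp. With no filter, where 13 member probes were tested, 4353 of 45598 probes (9.55%) passed it. Adjusted counts were 9 with no filter, 1126 within slide 2, 104 in the authors' values and 3506 with array weights. Of those chosen after seeing the data, they were 1, 5 and 8 without OV replicate 3 combined with the slide block, normexp and median scaling, 39 in the authors' values with the slide block and 69 in those values not rescaled. Unadjusted counts were 503 within slide 1, 6128 within slide 2, 5776 in the authors' values, 9514 with array weights, 4725, 4219 and 3271 without OV replicate 3 with the slide block, normexp and median scaling, 5492 in the authors' values with the slide block and 5655 not rescaled. Member probes at an unadjusted p under 0.05 numbered 1 with normexp, with no filter, within slide 2 and in each of the 5 added settings, 2 in the authors' values and 3 with array weights. With each array left out, the adjusted count was 0 to 1, the unadjusted 2022 to 5330 (5330 without OV replicate 1, 2022 without OV+E replicate 5), the member count 0 to 1 and the median −0.19 to −0.023. The 1 was Nqo1 without OV replicate 1 and Cat without OV replicate 3. The median over the genes was above 0 within slide 1 (0.087), without OV replicate 3 with the slide block (0.024) or median scaling (0.010), and in the authors' values with the slide block (0.0041). It was below 0 in the other settings run. Same-numbered rats correlated at 0.170, −0.0761, −0.0110 and 0.105, and differently numbered rats at −0.290 to 0.122. The numbers are not stated to mark a litter, batch or day, so they were not taken as pairs. The replicate block gave 0 adjusted and 1966 unadjusted calls.

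Of the named genes, Cat, Rac2, Ncf1, Ggt7, Maff, Nqo2 and Atp7b passed the adjusted threshold with array weights, and Duox1 within slide 2 and in the authors' values with the slide block. Some signs turned, and the cause was not tested. Hmox1 was −0.10 with normexp, −0.13 within slide 2, −0.15 in the authors' values, −0.14 without OV replicate 3 and with the slide block, −0.20 in the authors' values with the slide block, −0.091 without OV replicate 3 and with normexp, −0.072 without OV replicate 3 and with median scaling and −0.13 in the authors' values not rescaled. With each array left out Hmox1 ranged from −0.11 to 0.21, with the sign turned without OV replicate 3. Nqo1 was −0.014 with normexp. Maff was −0.10 with normexp. Osgin1 was −0.29 with normexp. Cybb was 0.15 with quantile normalization, 0.036 with median scaling and 0.27 within slide 1. With each array left out Cybb ranged from −0.41 to 0.12, with the sign turned without OV replicate 2, OV replicate 5 or OV+E replicate 3. Ftl1 was 0.016 with quantile normalization. Cat was 0.24 within slide 1. Sod1 was 0.057 within slide 2, 0.024 without OV replicate 3 and with the slide block, 0.0041 in the authors' values with the slide block and 0.010 without OV replicate 3 and with median scaling. Sod2 was −0.036 within slide 2, −0.030 in the authors' values, −0.034 with array weights and −0.0097 in the authors' values not rescaled. The Gpx1 probe A_42_P805300 was 0.059 within slide 2, 0.084 in the authors' values, 0.015 with array weights, 0.098 without OV replicate 3 and with the slide block, 0.11 in the authors' values with the slide block, 0.051 without OV replicate 3 and with normexp, 0.097 without OV replicate 3 and with median scaling and 0.10 in the authors' values not rescaled. With each array left out the Gpx1 probe A_42_P805300 ranged from −0.22 to 0.059, with the sign turned without OV replicate 3. The Gpx1 probe A_44_P1164156 was −0.033 within slide 2, −0.015 in the authors' values, −0.066 with array weights and −0.021 without OV replicate 3 and with normexp. With each array left out the Gpx1 probe A_44_P1164156 ranged from −0.036 to 0.048, with the sign turned without OV replicate 3 or OV+E replicate 2. Prdx1 was −0.036 within slide 2. Mt3 was 0.095 within slide 2, 0.052 without OV replicate 3 and with the slide block, 0.039 in the authors' values with the slide block and 0.030 without OV replicate 3 and with median scaling. Mt1 was 0.069 within slide 2 and 0.0051 without OV replicate 3 and with median scaling. Nnt was −0.010 within slide 2. Sod3 was 0.023 in the authors' values, 0.053 without OV replicate 3 and with the slide block, 0.075 in the authors' values with the slide block, 0.0025 without OV replicate 3 and with normexp, 0.033 without OV replicate 3 and with median scaling and 0.044 in the authors' values not rescaled.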
